A study of Mus musculus with 2 samples.

Results

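The miR-23, miR-27 and miR-24 microRNAs are made from 2 clusters of 3 hairpin genes each in the mouse genome. Mir23a, Mir27a and Mir24-2 lie on chromosome 8, and their paralogs Mir23b, Mir27b and Mir24-1 lie on chromosome 13. These 6 genes were taken by name from the GENCODE M21 annotation, out of 2202 microRNA genes counted in the files, and all 6 were found. They were measured by small RNA sequencing of the gastrocnemius, the large calf muscle, of female B6CASTF1/J mice aged 2 months, first-generation hybrids of the C57BL/6J and CAST/EiJ strains. The series has 1 group of 2 libraries, biological replicates 1 and 2, with no treatment and no second condition. Each library carries its own animal number but the donor code is shared, so whether the spread between libraries is one between animals rests on the labels alone.

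A microRNA is cut from a hairpin as a short strand from its 5p or 3p arm, which guides silencing of messenger RNAs that pair with its seed, the bases 2 to 8. Each of the 2 clusters is known to be transcribed as one primary transcript from which the hairpins are cut. In blood vessels the miR-23 and miR-27 families are known for roles in endothelial sprouting. In muscle, miR-23a is known to repress the ubiquitin ligases of muscle wasting, and miR-27 is known to target Pax3 and myostatin. The miR-24 family is known for roles in cell cycle exit and muscle cell differentiation.

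The mature sequences are shown first because they decide which gene a read can be given to. They were read from the RefSeq table for build GRCm38.p6, which matched the hairpins of all 6 genes, and are written 5′ to 3′ with the seed in capitals. The 3p arms were these, without miR-23b-3p of Mir23b, which has no entry there and could not be compared arm to arm.
miR-23a-3p (Mir23a): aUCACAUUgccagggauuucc
miR-27a-3p (Mir27a): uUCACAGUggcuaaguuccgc
miR-27b-3p (Mir27b): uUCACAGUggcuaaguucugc
miR-24-3p (Mir24-2 and Mir24-1): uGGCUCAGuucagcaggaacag
The 5p arms, cut from the other side of each hairpin, were these.
miR-23a-5p (Mir23a): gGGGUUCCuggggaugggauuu
miR-23b-5p (Mir23b): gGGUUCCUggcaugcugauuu
miR-27a-5p (Mir27a): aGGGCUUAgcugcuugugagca
miR-27b-5p (Mir27b): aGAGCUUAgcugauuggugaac
miR-24-2-5p (Mir24-2): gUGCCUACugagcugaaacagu
miR-24-1-5p (Mir24-1): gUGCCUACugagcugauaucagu

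The 3 families differ in how far the sequence separates their paralogs. The 2 miR-27 3p arms share the seed UCACAGU and differed at 1 of 21 bases, C19U, with the miR-27a base first and positions counted from 1 at the 5′ end. A read of either one therefore needs more than its first 18 bases to be told from the other locus. The first 18 of the 21 bases of miR-23a-3p were likewise found in the Mir23b hairpin. Compared base by base from the 5′ end without gaps, the 5p arms of Mir27a and Mir27b differed at 8 of 22 bases. One of these, G3A, lies inside the seed. An inserted base would count as several differences in such a comparison, so 8 may overstate how far these arms diverge. The 5p seeds of the Mir23 genes also differ, GGGUUCC in miR-23a-5p and GGUUCCU in miR-23b-5p. The longest stretch that the hairpins share was 20 bases for Mir23a with Mir23b, and 20 bases for Mir27a with Mir27b.

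In the miR-24 family the 3p arm does not separate the loci at all. The whole of miR-24-3p, 22 bases, occurs in both hairpins, inside a shared stretch of 28 bases given in capitals here.
Mir24-2 hairpin: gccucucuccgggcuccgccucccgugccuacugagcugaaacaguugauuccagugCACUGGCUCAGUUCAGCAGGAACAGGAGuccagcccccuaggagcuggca
Mir24-1 hairpin: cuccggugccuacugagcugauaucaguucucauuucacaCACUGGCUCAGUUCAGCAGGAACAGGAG
A read of exactly miR-24-3p matches both places. The 5p arms do differ, at 5 of the first 22 bases when likewise compared without gaps, beginning with A17U (miR-24-2-5p first). The stretch they share from the first base is 16 bases long, and an inserted base after it would count as several differences. The files give 1 count per gene and do not separate arms, and they list reads that aligned to several places in a row of their own. That row held 70.1% of the reads of replicate 1 and 72.3% of those of replicate 2. How many of them were miR-24-3p was not tested, and the counts of Mir24-2 and Mir24-1 are given below without being read as the level of miR-24.

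Both clusters lie on the plus strand and keep the same order of hairpins, at different spacing. In mm10 the chromosome 8 cluster runs over 404 bp, with Mir23a (ENSMUSG00000065611.1) at 84208518 to 84208592, Mir27a (ENSMUSG00000065444.1) at 84208672 to 84208758 and Mir24-2 (ENSMUSG00000065541.1) at 84208815 to 84208921. The chromosome 13 cluster runs over 792 bp, with Mir23b (ENSMUSG00000065599.2) at 63300484 to 63300557, Mir27b (ENSMUSG00000065475.2) at 63300712 to 63300784 and Mir24-1 (ENSMUSG00000105904.1) at 63301208 to 63301275. The gaps between neighbouring hairpins were 79 and 56 bp on chromosome 8 and 154 and 423 bp on chromosome 13. Mir23a and Mir27a overlap no other annotated gene, and the end of Mir24-2 overlaps the start of the long noncoding gene Gm26532 (84208920 to 84209609). The chromosome 13 cluster lies inside 2010111I01Rik (62964893 to 63326096, plus strand), the aminopeptidase gene that RefSeq names Aopep. Mir23b is intronic there and touches no annotated exon. Mir27b lies whole in an exon of a transcript annotated for nonsense-mediated decay, and Mir24-1 whole in exons of transcripts of the nonsense-mediated decay, retained intron and processed transcript types. On the minus strand, all 3 genes of chromosome 13 lie in an intron of Fancc.

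**Figure D1:**
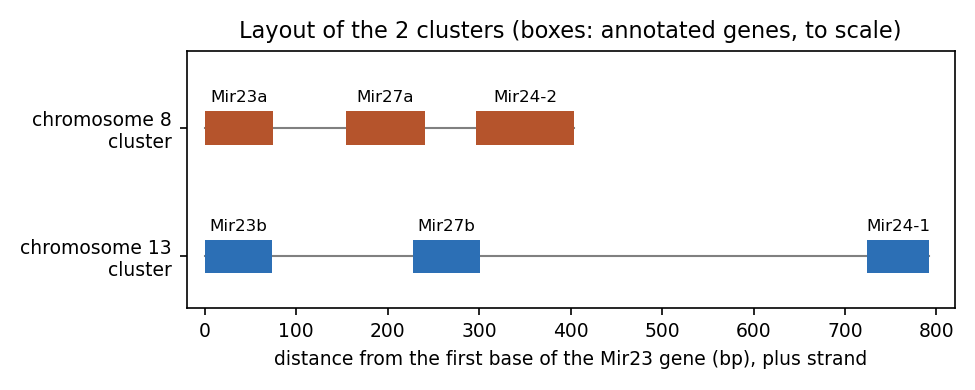
Positions of the 6 genes along the plus strand, as distance in bp from the first base of the Mir23 gene of each cluster, with boxes to scale. The chromosome 8 cluster spans 404 bp and the chromosome 13 cluster 792 bp, and the wider gap before Mir24-1, 423 bp, accounts for most of the difference.

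Together the 6 genes took 8.26% of all own-strand microRNA counts in replicate 1, with a 95% Clopper-Pearson (exact) interval of 8.23 to 8.30. The share in replicate 2 was 7.83% (7.80 to 7.87), and the mean was 8.05% ± 0.305 (SD, n = 2). Own-strand totals were 1950204 and 2291821 counts, and levels are given in CPM, counts scaled to an equal own-strand total in each library. Neither the totals nor the level of any gene include the reads without a single place, 70.1% and 72.3% of those listed. Shares, levels and ranks therefore describe only reads that could be placed. Where the genes would stand with the remaining reads was not tested. A single count was worth 0.513 CPM in replicate 1 and 0.436 CPM in replicate 2. All intervals here cover counting error only, and may be too narrow even for that, because amplified reads are not independent molecules. All 6 genes passed the minimum of 10 counts in each library, as did 278 of the 2202 genes, which are called detected. The 2 Mir23 genes made up most of the sum, at 6.98% and 6.55% of counts, against 1.25% and 1.24% for the 2 Mir27 genes and 0.0376% and 0.0426% for the 2 Mir24 genes.

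Mir23a had the highest level of the 6, with 80148 counts (41097 CPM) in replicate 1 and 86571 counts (37774 CPM) in replicate 2. Its mean of 39436 ± 2350 CPM (SD, n = 2) placed it 6th among the detected genes, by reads that could be placed. Mir23b, its paralog, had 55935 counts (28682 CPM) and 63585 counts (27744 CPM), a mean of 28213 ± 663 CPM (SD, n = 2) and rank 12. The values of these 2 genes did not overlap: the lower Mir23a library was above the higher Mir23b library.

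Of the Mir27 genes it was the chromosome 13 copy that was higher. Mir27b had 19728 counts (10116 CPM) in replicate 1 and 23495 counts (10252 CPM) in replicate 2, a mean of 10184 ± 96.0 CPM (SD, n = 2) and rank 19. Mir27a had 4633 counts (2376 CPM) and 4894 counts (2135 CPM), a mean of 2256 ± 170 CPM (SD, n = 2) and rank 42. Both libraries of Mir27b were thus far above both of Mir27a.

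Counts at the Mir24 genes were low beside their cluster neighbours. Mir24-2 had 671 counts (344 CPM) in replicate 1 and 872 counts (380 CPM) in replicate 2, a mean of 362 ± 25.8 CPM (SD, n = 2) and rank 96. Mir24-1 had 62 counts (31.8 CPM) and 105 counts (45.8 CPM), a mean of 38.8 ± 9.92 CPM (SD, n = 2) and rank 201. It was the least precise member, with a share of counts of 0.00318% in replicate 1 (0.00244 to 0.00408) and 0.00458% in replicate 2 (0.00375 to 0.00555).

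From high to low, the order was therefore Mir23a, Mir23b, Mir27b, Mir27a, Mir24-2 and Mir24-1, the same in each library and with no overlap between neighbours. Against the genes next to them in the order of all detected microRNAs, most members were not separated. The 2 libraries of Mir23a overlapped those of Mirlet7g above it (38782 and 52116 CPM) and of Mir21a below it (42024 and 30322 CPM). Mir23b overlapped Mir30a (27471 and 35179 CPM) but not Mir26b (18114 and 25457 CPM). Mir27b overlapped Mir30e (10096 and 14195 CPM) but not Mir100 (9190 and 8536 CPM). Mir27a, Mir24-2 and Mir24-1 overlapped both of their neighbours, which were Mir130a and Mir335, Mir423 and Mir34a, and Mir138-2 and Mir496a. With 2 libraries of 1 group there is no pattern across conditions to match, so no gene can be named as most alike in pattern.

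**Figure D2:**
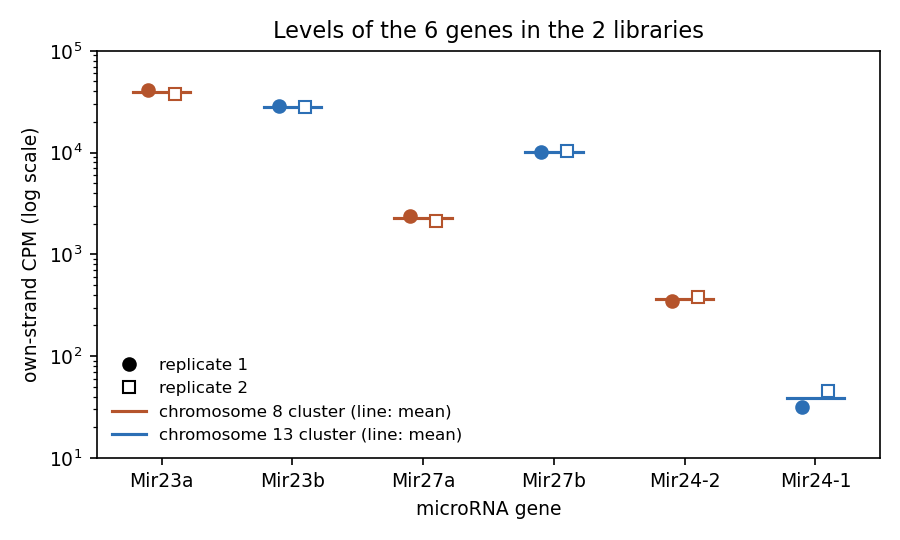
Own-strand CPM on a log axis for each of the 6 genes, as filled circles for replicate 1, open squares for replicate 2 and a line at their mean. The 2 libraries lie closest for Mir27b and farthest apart for Mir24-1, Mir23a leads at 39436 CPM, and Mir27b lies above Mir27a while Mir23a and Mir24-2 lie above their paralogs.

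The 2 clusters were then compared pair by pair within each library, where library size cancels. The chromosome 8 gene gave most of the counts for Mir23 and Mir24 and the smaller part for Mir27. Mir23a held 58.9% of the Mir23 pair in replicate 1 (58.6 to 59.2) and 57.7% in replicate 2 (57.4 to 57.9), averaging 58.3% ± 0.878 (SD, n = 2). Mir27a held 19.02% of the Mir27 pair (18.5 to 19.5) and 17.2% (16.8 to 17.7), a mean of 18.1% ± 1.26 (SD, n = 2). Mir24-2 held 91.5% of the Mir24 pair (89.3 to 93.5) and 89.3% (87.1 to 91.1), a mean of 90.4% ± 1.62 (SD, n = 2), which covers only reads that could be placed.

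The gaps between these shares were many times the spread between libraries. As ratios, Mir23a exceeded Mir23b 1.43-fold in replicate 1 and 1.36-fold in replicate 2, and Mir24-2 exceeded Mir24-1 10.8-fold and 8.30-fold. Mir27b exceeded Mir27a 4.26-fold and 4.80-fold, so the direction was opposite within the same pair of clusters. No test is attached, because 2 libraries allow an exact sign permutation no p-value below 0.5.

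Summed over their 3 genes, the clusters came close to each other in reads that could be placed. Chromosome 8 gave 85452 of the 161177 counts of the 6 genes in replicate 1, or 53.02% (52.8 to 53.3), and 92337 of 179522 in replicate 2, or 51.4% (51.2 to 51.7). The mean was 52.2% ± 1.12 (SD, n = 2). The chromosome 8 share was lower in replicate 2 for every pair, with differences of −1.24 percentage points for Mir23, −1.78 for Mir27 and −2.29 for Mir24. For Mir23 and Mir27 the counting intervals of the 2 libraries did not overlap, and for Mir24 they did.

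**Figure D3:**
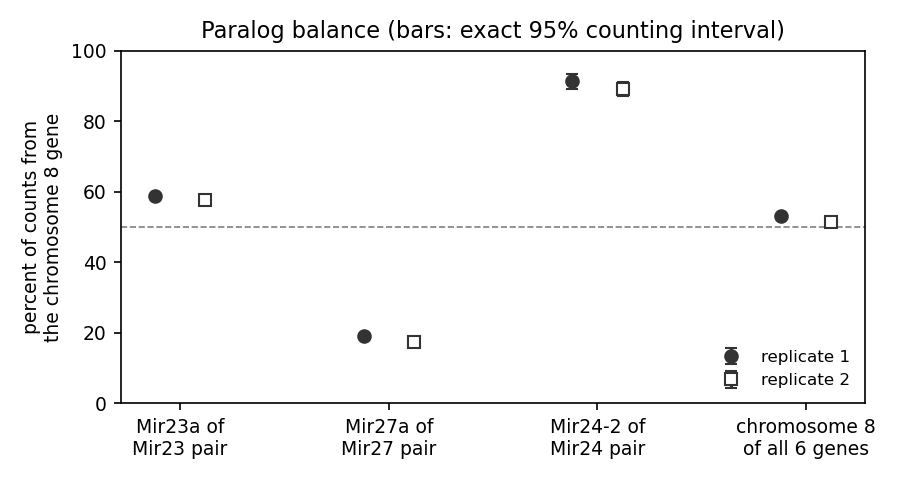
Percent of counts that came from the chromosome 8 gene of each pair and from the chromosome 8 cluster of all 6 genes, with exact 95% counting intervals that are often smaller than the symbols and a dashed line at an even split. Mir23a and Mir24-2 lie above the line at means of 58.3% and 90.4%, Mir27a lies below it at 18.1%, and the clusters as a whole lie near it at 52.2%. All shares cover only reads that could be placed.

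Inside each cluster the Mir23 gene dominated the counts that could be placed, more so on chromosome 8. Mir23a made up 93.8% of its cluster in each library, a mean of 93.8% ± 0.0265 (SD, n = 2), and Mir27a made up 5.42% and 5.30%. Mir23b made up 73.9% and 72.9% of its cluster, and Mir27b 26.1% and 26.9%. Mir24-2 and Mir24-1 held means of 0.865% ± 0.113 and 0.101% ± 0.0273 (SD, n = 2 each). Mir23a was 17.3-fold above Mir27a in replicate 1 and 17.7-fold in replicate 2, whereas Mir23b was 2.84-fold and 2.71-fold above Mir27b. Relative to its Mir23 neighbour, Mir27b was thus 6.10-fold and 6.54-fold higher than Mir27a, a mean of 6.32 ± 0.307 (SD, n = 2).

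For the Mir24 genes the same comparison ran the other way. Mir24-2 was 119-fold and 99.3-fold below Mir23a, and Mir24-1 was 902-fold and 606-fold below Mir23b. Relative to its Mir23 neighbour, Mir24-2 was 7.55-fold and 6.10-fold higher than Mir24-1, a mean of 6.83 ± 1.03 (SD, n = 2). The same limit on reads of miR-24-3p holds for these values, and how far each sequence is favoured in library preparation was not measured.

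**Figure D4:**
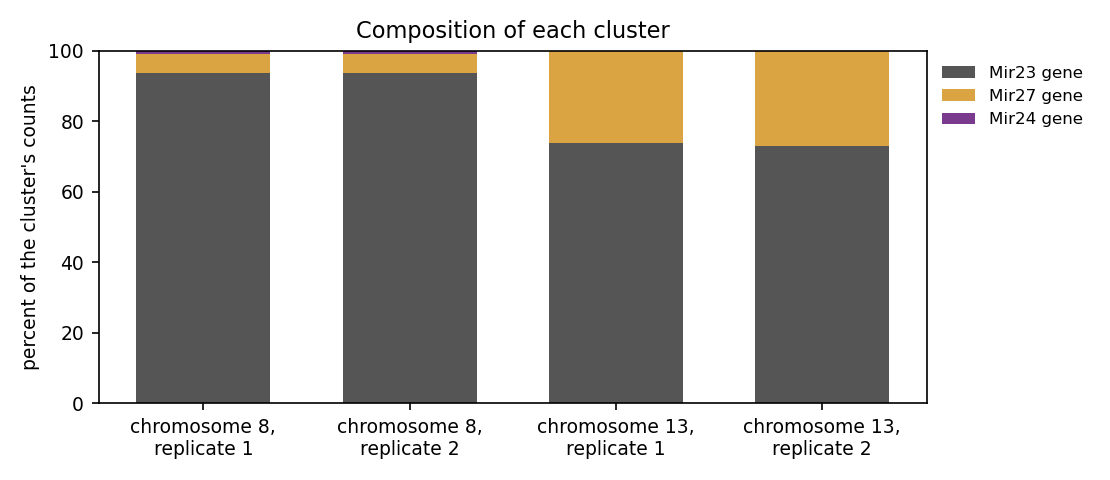
Percent of each cluster's own-strand counts held by its Mir23, Mir27 and Mir24 gene, as stacked bars for each library. The Mir27 part is near 5% on chromosome 8 and above 26% on chromosome 13 in both libraries, and the Mir24 part is under 1% throughout.

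Each Mir24 gene overlaps a microRNA gene on the other strand, and no other microRNA gene lies within 20 kb of either cluster. Mir3074-2 (minus strand, 84208825 to 84208907) had 0 own-strand counts in both libraries, which allows up to 1.54 and 1.31 CPM at the limit of 3 counts. Mir3074-1 (minus strand, 63301199 to 63301283) had 10 and 11 own-strand counts, against 62 and 105 for Mir24-1 opposite to it. The column for reads of either strand lists both Mir24 genes at 0, so their counts exist only in the strand-specific columns. The 4 genes Mir23a, Mir27a, Mir23b and Mir27b had 0 counts on their opposite strand. Among the mature sequences of the RefSeq table, 4 loci outside the clusters, Mir5124b, Mir6369, Mir6410 and Mir6413, carry the miR-24-3p seed GGCUCAG. All 4 had 0 counts in both libraries. No locus outside the clusters in the table shares the seed of miR-23a-3p, miR-27a-3p or miR-27b-3p.

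Between the 2 libraries, with sizes scaled by TMM, the Mir23 and Mir27 genes differed by at most 0.11 on the log2 scale and Mir24-1 by 0.57. On unscaled totals, as used for CPM, the largest of the Mir23 and Mir27 differences was −0.15, for Mir27a. None of the 6 was called in the two-sided exact binomial test of replicate 2 against replicate 1 (Benjamini-Hochberg adjusted p under 0.05 and at least 2-fold), which called 33 of 278 detected genes, or 11.9%. Read against that share, 0 of 6 is not a result particular to these genes. The test sets 2 libraries against counting error and compares no conditions. Without the fold minimum, 5 of the 6 had an adjusted p under 0.05, against 153 of 278 genes, or 55.0%.

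Mir24-1 showed the largest difference of the 6, with a log2 ratio of replicate 2 over replicate 1 of 0.57 (counting SE 0.230, adjusted exact p = 0.0250). The ratio was 0.19 for Mir24-2 (SE 0.0741, adjusted exact p = 0.0184) and 0.07 for Mir27b (SE 0.0139, adjusted exact p = 5.01e-06). Mir27a had a log2 ratio of −0.11 (SE 0.0296, adjusted exact p = 0.000793) and Mir23a one of −0.07 (SE 0.00707, adjusted exact p = 6.02e-25). For Mir23b the ratio was −0.0004 (SE 0.00836, adjusted exact p = 0.981), and its sign changed with DESeq2 size factors and on counts of either strand. These p-values allow for counting error alone, and they depend on the scaling of the libraries. With unscaled library totals the adjusted exact p was 3.39e-08 for Mir23b, 0.241 for Mir27b and 0.0875 for Mir24-2. For Mir23a, Mir27a and Mir24-1 it stayed under 0.05. An edgeR exact test with the coefficient of variation of 0.351 estimated from the same libraries gave all 6 an adjusted p of 1, and one with an assumed 0.2 gave values from 0.725 to 1.

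As a description, the median size of the log2 ratio was 0.0902 over the 6 genes and 0.37 over all 278, and 69.1% of the 278 had a smaller one than Mir24-1. The log2 ratio was above 0 for 3 of the 6 genes and for 136 of the 278. Among the 42 genes at least as abundant as Mir27a the median size of the log2 ratio, without its sign, was 0.28. For the 4 Mir23 and Mir27 genes, which are among them, the sizes ran from 0.0004 to 0.11. The test called 2 of those 42 genes.

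**Figure D5:**
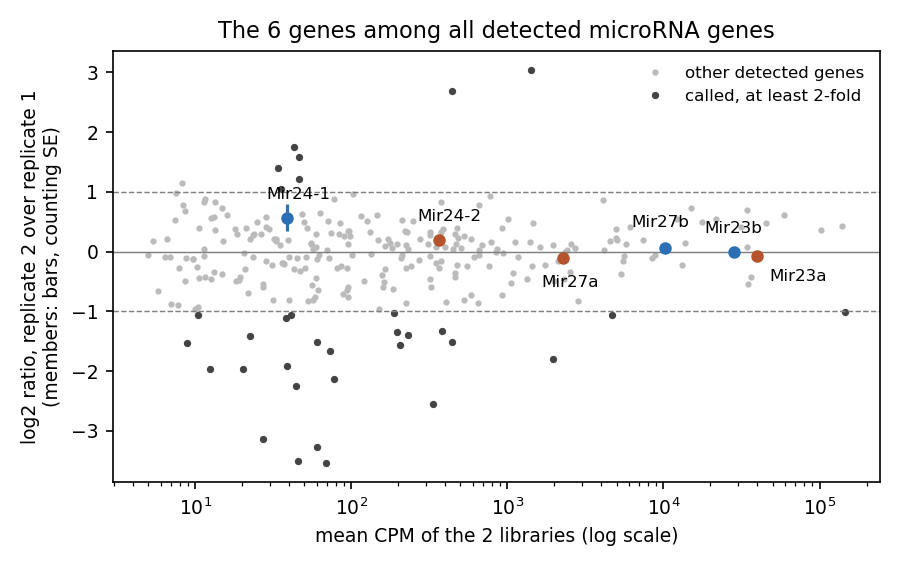
Log2 ratio of replicate 2 over replicate 1 against mean CPM on a log axis for the 278 detected genes, with the 33 called genes dark, dashed lines at 2-fold and the 6 genes in red (chromosome 8) or blue (chromosome 13) with bars for counting SE. On these TMM-scaled sizes the Mir23 and Mir27 genes lie within 0.11 of 0 and Mir24-1, at 0.57, lies inside the 2-fold lines.

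Other microRNAs of vessel growth and muscle mass are given for scale, from lists named for what their members are known to do. Of 21 named vessel growth microRNAs, 19 matched a gene by name and 13 of these were detected. None was called, against 11.9% of all detected genes. Without the fold minimum 4 were higher and 7 lower in replicate 2. Of all 278 detected genes, 69 were higher and 84 lower, or 55.0% in all. The median log2 ratio of the list was −0.0885, against −0.0165 over all detected genes. The log2 ratio was above 0 for 4 of the 13 and below 0 for 9. The most abundant genes of the list were Mir126a, the endothelial microRNA of Egfl7, Mir10b and Mir322, with log2 ratios of 0.42, 0.49 and 0.20. Of 15 named muscle mass microRNAs, 14 matched a gene by name and all 14 were detected. Their median log2 ratio was 0.51, against −0.0165 over all detected genes. Without the fold minimum 6 were higher and 2 lower, beside the same 55.0% of all detected genes. The test with it called 3 of the 14, beside the same 11.9% of all genes, Mir499 (3.03) and Mir208b (2.69), both in myosin heavy chain genes, as higher in replicate 2 and Mir182 (−3.53), which is known to target Foxo3, as lower.

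Markers of cell types in the tissue also differed between the libraries, and not all in 1 direction. The smooth muscle list, with 2 of 3 markers detected, took 20.3% and 9.73% of counts, and Mir145b had 2 counts in each library. The endothelial list took 12.1% and 15.7%, all through Mir126a, while Mir126b was at 0. The striated muscle list, with 9 of 10 detected, took 2.79% and 4.66%, and was led by Mir206 at 26708 and 41934 CPM. The 2 genes of miR-1a, the microRNA best known in striated muscle, were counted at 176 and 247 CPM for Mir1a-2 and 11.8 and 14.8 CPM for Mir1a-1. Reads that match several loci are in neither value, as for the Mir24 genes, so these and the striated list share are not read as the level of miR-1a or of muscle. Mir208a, below the minimum in replicate 1, had 4 and 50 counts. The fibroblast list (4 of 5 detected) took 4.35% and 3.18%, and was led by Mir21a at 42024 and 30322 CPM. The log2 ratio was below 0 for 3 of its detected genes and above 0 for 1, Mir214. The leukocyte list (4 of 6 detected, Mir146a not matched by name) took 0.315% and 0.246%. Of its detected genes, 2 were above 0 and 2 below. The red cell list (2 of 3) took 0.0787% and 0.0460%, and the glial list (1 of 3) 0.308% and 0.0862%. In bulk tissue, fewer cells of a type and less RNA per cell cannot be told apart. Which cells the 6 genes were measured from, and the part of these markers in their levels, was not tested.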

How the data were processed

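The authors deposited raw counts of reads per microRNA gene for each library, assigned to GENCODE mouse M21 genes on mm10 per the deposited file descriptions. The deposited counts cover either strand, the gene's own strand and the opposite strand, and own-strand counts were used. No aligner or counter is given in the sources used here. Rows that name no gene stayed out of library sizes. Of all reads listed, 20.7% and 15.9% were own-strand microRNA counts. A read spans a whole short RNA, so levels were not divided by length. Differences of the CAST/EiJ genome from mm10 were not analysed.

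CPM used all own-strand counts. Shares have exact Clopper-Pearson 95% intervals. The library comparison used a conditional exact binomial test on TMM-scaled sizes (edgeR 4.0.16), with Benjamini-Hochberg adjustment over genes with at least 10 counts in each library. Log2 ratios used a prior of 0.5 counts. A chi-square of 271 per degree of freedom over all genes showed that the libraries are not one library deposited under both labels. Without a second group, no quasi-likelihood test was run. The test was checked on simulated data. Apart from planted differences, those counts varied by counting error alone, so the wider spread between these libraries was not covered. Computations ran in Python 3.11.15 (scipy 1.17.1, pandas 2.3.3, numpy 2.4.6, matplotlib 3.10.9) and R 4.3.3 (with DESeq2 1.42.0 as an alternative).

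The 6 genes and the lists were chosen with earlier results of these data known. Besides the 6, genes were named if they lay within 20 kb of a cluster, stood next to a member in order of mean CPM, or were among the 3 most abundant detected genes of a list. Mir208b and Mir182 were named because the test called them, the genes sharing a seed after the sequences were read, and Mir1a-1, Mir1a-2, Mir208a, Mir145b and Mir126b after their values were seen. Mir18a, Mir92a-1, Mir628 and Mir146a, named in the lists, did not match a gene by that name and were not analysed here. Genes with close names, Mir18 (148 and 206 counts), Mir92-1 (791 and 803) and Mir146 (1024 and 650), were detected. These may be the list members meant, and their log2 ratios were 0.29, −0.16 and −0.84. Their counts are in no vessel growth or leukocyte list value. Alternatives changed the scaling, count minimum, strand, denominator, fold minimum, dispersion and libraries used.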

Additional observations from a re-analysis of the deposited data

Results flagged for a closer look

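Mir3074-1, the gene opposite to Mir24-1, lies outside the 6 genes compared and had 10 own-strand counts in replicate 1 and 11 in replicate 2, above the limit of 3 counts. Its counts equal the opposite-strand counts of Mir24-1. Reads with several possible places are counted for no gene, and they amounted to 70.07% of the reads of replicate 1 and 72.33% of those of replicate 2.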

How the results depend on the processing

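No member was called under 7 of the 8 alternatives of the library comparison, and 5 were called with no fold minimum. On counts of either strand only the 4 Mir23 and Mir27 genes could be tested, because both Mir24 genes are listed at 0 there, so that setting gave no value for the Mir24 pair or the Mir24 order. Of all genes, 33 were called, against 18 with a minimum of 50 counts in each library, 153 with no fold minimum and 7 by the edgeR exact test with the estimated dispersion. The log2 ratio of Mir23b turned from −0.0004 to 0.015 with DESeq2 size factors and to 0.033 on counts of either strand, and no other member changed sign under these alternatives. The summed level of the 6 genes, 80489 CPM, became 109533 on counts of either strand, 14807 with all reads listed as the denominator and 73137 with uniquely aligned reads. With counts summed over both libraries the Mir23a share was 58.2%, the Mir27a share 18.1% and the Mir24-2 share 90.2%. Counts of either strand equal own-strand counts for the Mir23 and Mir27 genes and test nothing there, and leaving out 1 of 2 libraries gives the other library's value, which is no check of stability. Without replicate 1 or replicate 2 the Mir23a share was 57.7% or 58.9%, the Mir27a share 17.2% or 19.02% and the Mir24-2 share 89.3% or 91.5%. Leaving out a library ends the library comparison. No paired analysis was possible because the series has 1 group. Mir24-1 had few counts, 62 and 105, and its shares have the widest intervals relative to their size. The parts of depth and of reads that could not be placed in these low counts were not tested.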

Other observations

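Of the 278 detected genes, 248 were in the RefSeq table of mature sequences. For 34 of them at least 1 mature sequence occurs whole in the hairpin of another locus, as for the Mir24 genes, and their median level was 118 CPM. The other 214 had a median of 152 CPM. Mir24-2, at 362 CPM, lay above both medians and Mir24-1, at 38.8 CPM, below both.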
